A study of Homo sapiens with 6 samples.

Results

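The genes described here write, copy, read or remove DNA methylation: DNMT1, UHRF1, DNMT3A, DNMT3B, TET1, TET2, TET3, MBD2 and MBD3. They were taken by gene symbol from the deposited count table, which held all 9 of them among 25343 gene lines. Bulk RNA had been sequenced from A375, an established human melanoma cell line, after 24 h with 50 nM panobinostat (3 libraries) or with the same volume of PBS as vehicle (3 libraries). Panobinostat inhibits histone deacetylases, the enzymes that take acetyl groups off histones. No genetic change of the line is named in the labels. Nothing in the labels says whether the libraries of a group were separate cultures. Each p-value therefore reflects library-to-library spread alone, which may be technical.

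In mammals methyl groups sit mainly on cytosines that precede a guanine (CpG sites). DNMT3A and DNMT3B place new methyl groups, and after DNA replication UHRF1 recognises CpG sites methylated on only the parental strand and brings DNMT1, which copies the mark. TET1, TET2 and TET3 oxidise methylcytosine as the first step of its removal. MBD2 binds methylated CpG sites, and MBD2 and MBD3 are alternative subunits of the NuRD complex, which joins a chromatin remodeller to histone deacetylases; mammalian MBD3 has largely lost the binding to methylated DNA.

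Panobinostat lowered 8 of the 9 genes, and the remaining one, TET3, did not differ past the threshold. UHRF1 fell most, to 33.8% of its vehicle level, followed by DNMT3B (44.0%), DNMT3A (49.4%) and DNMT1 (54.3%). TET2 stood at 60.3% of vehicle, and TET1, MBD2 and MBD3 at 75.01%, 74.9% and 76.1%. The summed level of the 9 genes was 428 to 431 CPM (a gene's counts relative to the TMM-scaled library size) with panobinostat, against 657 to 698 CPM in vehicle.

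These counts have to be read against a response that covered most genes. Changes were called at an adjusted p under 0.05 from edgeR's quasi-likelihood test over 15499 genes, of which 41.0% were lower and 41.8% higher with panobinostat. At least 2-fold falls were called for 11.7% of tested genes and for 3 of the 9 members, UHRF1, DNMT3B and DNMT3A. Of these, DNMT3B and DNMT3A are borderline, as described below. Panobinostat and vehicle CPM ranges were separate for 8 of 9 members, against 83.4% of all tested genes, so separation by itself does not set the members apart. The members' median log2 change was -0.73, and that of all tested genes was 0.01.

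Total counts per library were 32293283 to 36201208 with panobinostat, against 34738362 to 38944399 in vehicle, and the floor of 3 counts equals 0.0774 to 0.0928 CPM depending on the library. The first principal component held 97.3% of the variance. Chi-square per degree of freedom was 1.90 to 9.14 for library pairs within a group and 312 to 359 for pairs between groups. Leaving out vehicle replicate 3 moved the log2 change of MBD3 from -0.39 to -0.48. It also lowered the edgeR adjusted p of UHRF1 from 8.89e-14 to 1.24e-16. Of 10 melanocyte and melanoma markers, SOX10, S100B, ERBB3, S100A1 and MITF were present in each library, whereas TYR and MLANA had 0 counts in all of them. Those 5 fell with panobinostat, by 0.67 (S100A1) to 3.09 (ERBB3) on the log2 scale. PMEL rose to 194 CPM with panobinostat against 0.628 CPM in vehicle. TYRP1 was called higher at 0.448 against 0.235 CPM (edgeR adjusted p = 0.032). It had only 20, 12 and 15 counts with panobinostat and 4, 10 and 12 in vehicle, near the filter, so its rise is uncertain. Of 11 markers of other cell types 6 had enough counts to be tested, and 5 of these were higher and 1 lower with panobinostat. In vehicle CD14 had 7, 3 and 8 counts, PECAM1 1, 3 and 7, and EPCAM 3, 2 and 2. CD14, PECAM1 and EPCAM had enough counts only with panobinostat, so the filter nearly fixed their calls as higher. The sum of the 11 markers was 65.3 to 68.6 CPM with panobinostat against 5.25 to 5.81 CPM in vehicle. With panobinostat most of it was COL1A1, a fibroblast collagen, at 56.1 CPM against 1.001 CPM in vehicle. In vehicle most of it was KRT14, a keratin and the marker that fell, at 3.17 CPM against 0.779 CPM with panobinostat. PECAM1, an endothelial marker, had 2.91 CPM with panobinostat against 0.0981 CPM in vehicle. PTPRC, which marks blood cells, had 1, 3 and 0 counts with panobinostat and 0 in each vehicle library. The part of these marker shifts in the results below was not tested.

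The promoters of the genes with the largest and the smallest change, UHRF1 and TET3, are shown because S phase genes, to which UHRF1 belongs, are classical targets of E2F transcription factors. Both are the 250 bases before a RefSeq start site on GRCh38.p14, at chr19:4909894-4910143 and chr2:73984660-73984909, each on the plus strand. Neither window overlaps an annotated exon in GENCODE release 29. Capitals mark a match to an E2F form.
UHRF1: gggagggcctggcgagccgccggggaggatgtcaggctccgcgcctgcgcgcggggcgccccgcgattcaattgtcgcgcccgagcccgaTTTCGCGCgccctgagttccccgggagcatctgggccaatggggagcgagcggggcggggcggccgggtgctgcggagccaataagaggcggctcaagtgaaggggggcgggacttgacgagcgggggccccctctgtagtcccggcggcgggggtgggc
TET3: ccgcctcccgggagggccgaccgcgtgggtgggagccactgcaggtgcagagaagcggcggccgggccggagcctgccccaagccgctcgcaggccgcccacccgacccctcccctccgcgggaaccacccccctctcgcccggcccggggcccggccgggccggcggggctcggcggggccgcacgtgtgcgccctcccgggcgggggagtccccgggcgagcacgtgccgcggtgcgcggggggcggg

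The forms searched, on both strands, were TTTCCCGC, TTTGGCGC, TTTCGCGC and TTTGCCGC. The UHRF1 match begins 160 bases before the start site, and another UHRF1 window, of an upstream start, holds a match 14 bases before its own start. The third UHRF1 window, of a start further downstream, holds none. None of the 17 windows of the other 8 genes, DNMT1 included, holds one of these forms. Among all 35116 windows of this length 2.79% hold one. By gene, 1 of the 9 genes had a match (11.1%), and 9 of 14 E2F and S phase genes with a window (64.3%), against 3.4% of 27305 genes. Any link between these matches and the fall of UHRF1 was not tested. The printed windows are rich in CpG sites, with 32 in that of UHRF1 and 37 in that of TET3, against a median of 11 over all windows. Which start site these cells use cannot be read from gene counts.

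The 4 lowest log2 changes among the 9 genes were those of UHRF1 and the DNA methyltransferases. UHRF1, the reader of hemimethylated DNA behind the replication fork, had 18.7, 20.2 and 20.02 CPM with panobinostat, against 60.7, 58.9 and 54.8 CPM in vehicle. Every panobinostat library lay far below every vehicle library. Its log2 change was -1.57 ± 0.06 (SE; edgeR adjusted p = 8.89e-14), at the 5.39 percentile of all tested changes.

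DNMT1, the maintenance methyltransferase, had 177, 178 and 183 CPM with panobinostat, against 340, 336 and 315 CPM in vehicle. The groups did not overlap, and the log2 change was -0.88 ± 0.04 (edgeR adjusted p = 9.05e-13). DNMT1 was by far the most abundant of the DNA methyltransferase messages in CPM, and it lay above 95.5% of tested genes by mean level.

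The de novo methyltransferases were much scarcer. DNMT3A had 10.7, 10.3 and 11.5 CPM with panobinostat, against 23.2, 21.6 and 21.1 CPM in vehicle, a log2 change of -1.02 ± 0.07 (edgeR adjusted p = 3.73e-10). Its 95% interval, -1.17 to -0.87, spans a 2-fold fall, so its count among the 2-fold falls is borderline. The fall was under 2-fold with upper quartile scaling (-0.90) and when only genes at 5 CPM or more were tested (-0.92). It was also under 2-fold without panobinostat replicate 2 (-0.985) or vehicle replicate 1 (-0.994). DNMT3B had 3.34, 3.34 and 3.31 CPM with panobinostat, against 7.74, 7.16 and 7.80 CPM in vehicle, a log2 change of -1.18 ± 0.10 (edgeR adjusted p = 3.56e-09). The 95% interval of DNMT3B, -1.39 to -0.98, also spans a 2-fold fall, so its count there is borderline too. Over the 14 alternatives its log2 change was -1.24 to -1.06. With 107 to 122 counts per panobinostat library, against 247 to 301 in vehicle, DNMT3B rests on the fewest reads of the 9 genes.

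**Figure D1:**
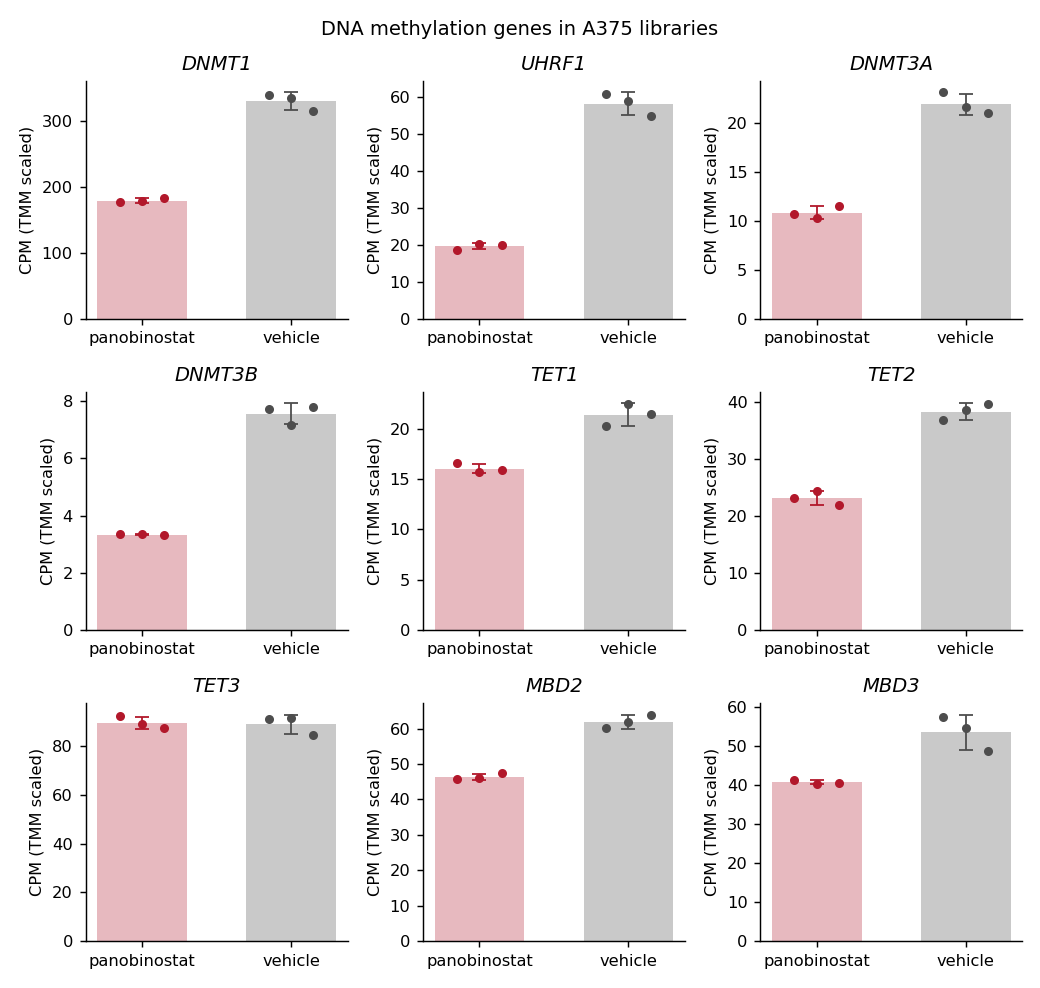
CPM of the 9 genes in each library, with panobinostat on the left and vehicle on the right of each panel; bars show the mean of 3 libraries, error bars the SD, and points the libraries. The groups are separate in every panel except that of TET3, where means of 89.7 and 89.1 CPM lie within the spread of the libraries.

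The demethylating dioxygenases split. TET2 had 23.1, 24.3 and 21.9 CPM with panobinostat, against 36.9, 38.7 and 39.7 CPM in vehicle, a log2 change of -0.73 ± 0.06 (edgeR adjusted p = 3.02e-09). TET1 had 16.6, 15.7 and 15.9 CPM with panobinostat, against 20.3, 22.5 and 21.5 CPM in vehicle, a smaller log2 change of -0.41 ± 0.06 (edgeR adjusted p = 1.29e-05). In TET1 and TET2 the panobinostat libraries all lay below the vehicle libraries. GENCODE annotates a processed pseudogene of TET1, so reads may be shared and the TET1 count is uncertain to that extent.

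TET3, the most abundant of the TET messages in CPM, had 92.3, 89.2 and 87.6 CPM with panobinostat, against 91.1, 91.7 and 84.6 CPM in vehicle. The groups overlapped, and the log2 difference of 0.01 had a 95% interval of -0.09 to 0.10 (edgeR adjusted p = 0.853). It passed as higher with upper quartile scaling (0.13, edgeR adjusted p = 0.0128) and when only genes at 5 CPM or more were tested (0.10, edgeR adjusted p = 0.0426). Upper quartile scaling moved the median of all tested genes to 0.13 as well, so TET3 then equalled that median.

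The NuRD-linked readers fell by amounts close to that of TET1. MBD2 had 45.8, 45.9 and 47.4 CPM with panobinostat, against 60.0, 61.8 and 63.9 CPM in vehicle, a log2 change of -0.42 ± 0.05 (edgeR adjusted p = 2.71e-07). MBD3 had 41.4, 40.3 and 40.6 CPM with panobinostat, against 57.4, 54.7 and 48.6 CPM in vehicle, a log2 change of -0.39 ± 0.06 (edgeR adjusted p = 7.66e-06). The groups were separate for each gene, and the third vehicle library was the closest to the panobinostat libraries for MBD3. Another annotated protein-coding gene on the same strand shares 12.6% of the merged exon length of MBD3, so its count is uncertain to that extent. The exons of the other 8 genes overlap no other gene in that annotation.

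**Figure D2:**
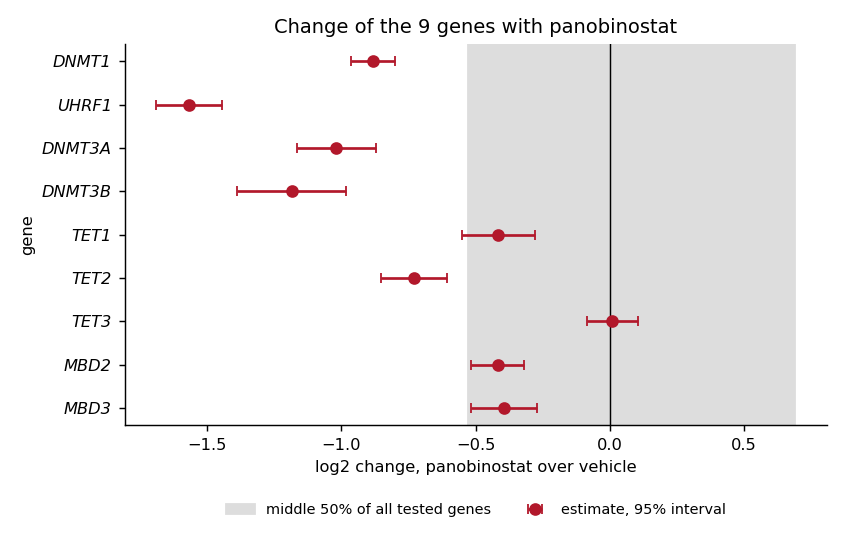
Log2 change with panobinostat over vehicle for the 9 genes, with 95% intervals from edgeR's quasi-likelihood fit; the grey band spans the middle 50% of all tested genes, -0.53 to 0.69. UHRF1, DNMT3B, DNMT3A, DNMT1 and TET2 lie left of the band, and TET1, TET3, MBD2 and MBD3 within it.

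Levels between genes can be compared only per length. Per kb of merged exons in GENCODE release 29, DNMT1 stood first in each group, at 32.9 ± 0.594 CPM per kb with panobinostat and 60.6 ± 2.44 CPM per kb in vehicle (SD, n = 3 each). UHRF1 ranked 5 with panobinostat at 3.82 ± 0.165 CPM per kb, and 2 in vehicle at 11.3 ± 0.588 CPM per kb. With panobinostat the order was DNMT1, MBD2, TET3, MBD3, UHRF1, TET1, TET2, DNMT3A and DNMT3B, and no neighbours overlapped in range. In vehicle it was DNMT1, UHRF1, MBD2, MBD3, TET3, TET2, TET1, DNMT3A and DNMT3B, and the ranges of UHRF1 and MBD2, of MBD3 and TET3, and of TET2 and TET1 overlapped. DNMT3B was last in each group, at 0.719 ± 0.004 and 1.63 ± 0.0768 CPM per kb in panobinostat and vehicle libraries. The order depends on the length used: per kb of coding sequence MBD3 led with panobinostat (46.7 CPM per kb) and DNMT1 in vehicle (67.5 CPM per kb). Which annotation the authors counted on is not stated in the labels.

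**Figure D3:**
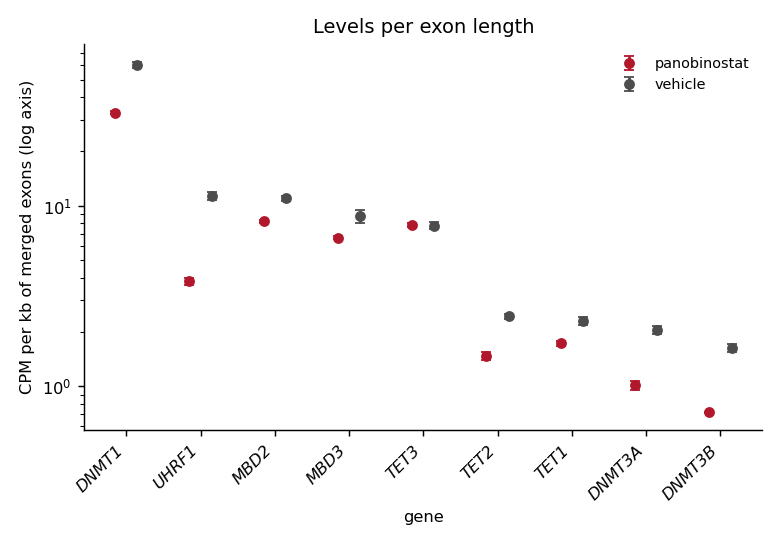
CPM per kb of merged exon length for the 9 genes on a log axis, panobinostat left of vehicle for each gene, as the mean and SD of 3 libraries. Genes are ordered by their vehicle level, from DNMT1 at 60.6 to DNMT3B at 1.63 CPM per kb, and UHRF1 drops below MBD2, TET3 and MBD3 with panobinostat.

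Ratios of counts within a library need no scaling between libraries. They restate the difference between the log2 changes of 2 genes and are not separate evidence. There were 0.106, 0.113 and 0.109 reads of UHRF1 per read of DNMT1 with panobinostat, against 0.178, 0.176 and 0.174 in vehicle, a log2 difference of -0.68. Reads of TET3 per read of TET2 were 3.99, 3.66 and 3.99 with panobinostat, against 2.47, 2.37 and 2.13 in vehicle, a log2 difference of 0.74. UHRF2, the paralogue of UHRF1, had 2.53, 2.43 and 2.31 reads per read of UHRF1 with panobinostat, against 1.42, 1.45 and 1.61 in vehicle, a log2 difference of 0.70.

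The remaining ratios moved less. TET1 to TET2 differed by 0.32 on the log2 scale and TET1 to TET3 by -0.42, while DNMT3B to DNMT1, DNMT3B to DNMT3A and DNMT3A to DNMT1 differed by -0.30, -0.17 and -0.14. In each of these 5 pairs the groups did not overlap. The share of such pairs among all gene pairs was not computed, and 83.4% of single tested genes had separate ranges. MBD3 per MBD2 was 0.903, 0.876 and 0.856 with panobinostat, against 0.956, 0.884 and 0.761 in vehicle, and the groups overlapped (log2 difference 0.03, exact permutation p = 0.9). For the other 8 of the 9 pairs the exact two-sided permutation p was 0.1 (Benjamini-Hochberg adjusted 0.1125), the smallest that 3 against 3 libraries allow, so no ratio could pass 0.05.

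**Figure D4:**
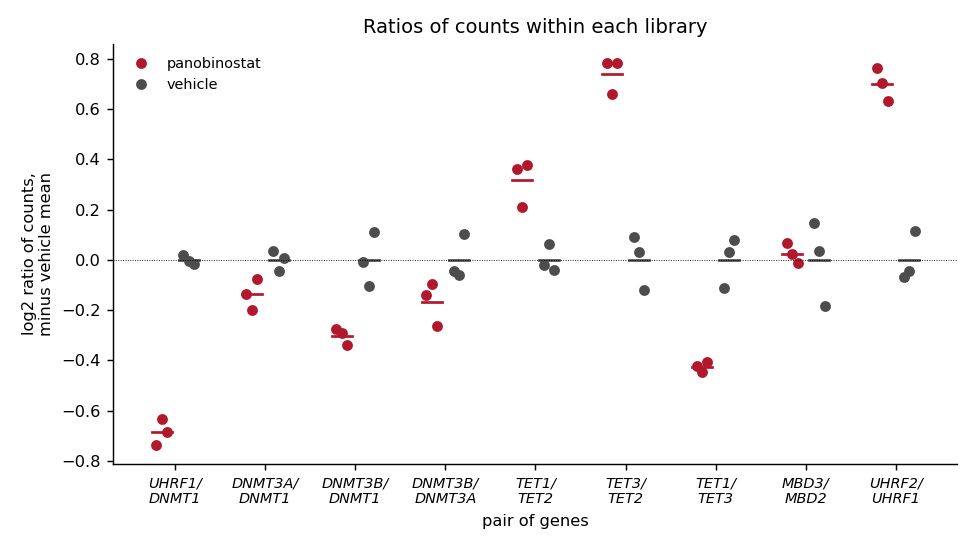
Log2 ratio of raw counts of 2 genes within each library, minus the vehicle mean of that pair, with panobinostat points left of vehicle points and short lines at the means. TET3/TET2 and UHRF2/UHRF1 lie 0.74 and 0.70 above vehicle, UHRF1/DNMT1 lies 0.68 below it, and MBD3/MBD2 is the pair whose groups overlap.

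Genes that work with the maintenance enzymes fell in all 7 cases tested, with a median log2 change of -1.29. CDCA7, the DNA-binding activator of the chromatin remodeller HELLS, had 3.78 ± 0.851 CPM with panobinostat and 32.8 ± 0.582 CPM in vehicle, and HELLS itself 17.03 ± 0.392 and 46.4 ± 1.33 CPM (SD, n = 3 each). PCLAF (listed as KIAA0101), which loads with the replication clamp, had 17.6 ± 1.77 CPM with panobinostat and 88.8 ± 9.49 CPM in vehicle. PCNA, the clamp, and LIG1, the replicative ligase that UHRF1 binds, fell by 1.24 and 1.29 on the log2 scale. ZBTB24, an activator of CDCA7, and USP7, a deubiquitinase of UHRF1 and DNMT1, changed less, by -0.38 and -0.26.

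E2F factors and S phase genes fell in 18 of 18 cases, with a median log2 change of -1.76. TYMS, RRM2 and MCM4, needed for nucleotide supply and replication, had the lowest adjusted p-values of the list and log2 changes of -3.31, -2.16 and -2.23. Their summed level was 576 to 601 CPM with panobinostat and 2076 to 2165 CPM in vehicle. UHRF1 and DNMT1 are themselves expressed mostly in cycling cells. In bulk RNA, fewer cells in S phase and less RNA per cell cannot be told apart, and the part of this list's fall in the changes of the 9 genes was not tested.

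Partners of de novo methylation also fell, in 10 of 10 tested cases, with a median log2 change of -0.53. NSD1 and NSD2 (listed as WHSC1), histone methyltransferases whose mark attracts DNMT3 enzymes, fell by 1.81 ± 0.04 and 1.44 ± 0.04 on the log2 scale. The histone methyltransferases SUV39H1 and SUV39H2, which act in heterochromatin, fell by 1.59 and 1.43. The other 6, SETD2, SETDB1, TRIM28, EHMT1, EHMT2 and the heterochromatin protein CBX5, fell by 0.25 to 0.58. DNMT3L, a catalytically inactive cofactor of DNMT3A that is normally restricted to germ cells, had 5, 5 and 6 counts with panobinostat, against 0 in each vehicle library, and was too low to be tested. Its mean with panobinostat was 1.9-fold a floor of 3 counts per vehicle library. That value makes no allowance for the counting error of the 5, 5 and 6 counts, so it is not a lower bound.

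Other methyl-CpG binding proteins and their relatives did not share a direction, with 2 of 9 higher, 5 lower and 2 not past the threshold. MBD5 and MBD6 were listed as members of the MBD family, and their binding to methylated CpG sites is not established. UHRF2 had 47.6 ± 1.45 CPM with panobinostat and 86.7 ± 1.68 CPM in vehicle, a log2 change of -0.87 ± 0.04 (edgeR adjusted p = 8.6e-12; SD, n = 3 each). ZBTB38 fell by 0.61, ZBTB33 (Kaiso) by 0.39 and the glycosylase MBD4 by 0.31. MBD5 and ZBTB4 rose by 0.40 and 0.21. MBD1 (0.12) and MBD6 (0.09) did not pass, although each passed as higher with upper quartile scaling (0.24 and 0.21) and under the 5 CPM filter (0.21 and 0.19); MBD1 also passed with RLE scaling (0.13), library size alone (0.13), DESeq2 (0.13) and limma-voom (0.12), and MBD6 without vehicle replicate 1 (0.14).

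**Figure D5:**
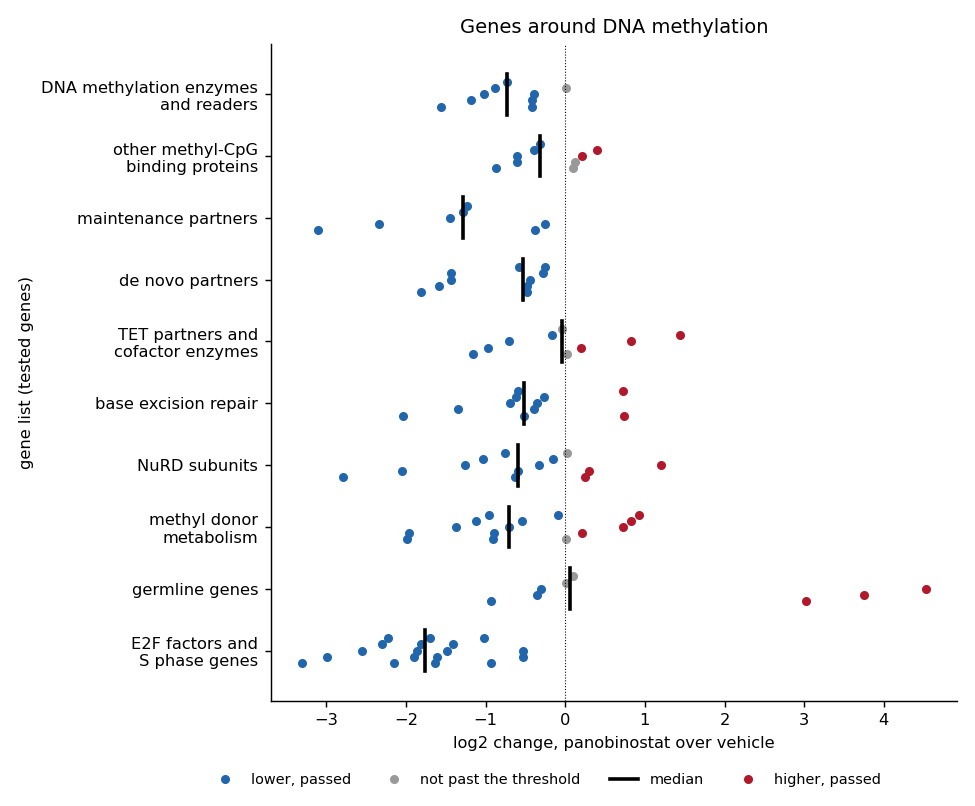
Log2 change with panobinostat over vehicle of each tested gene, by list; red and blue points passed the threshold as higher and lower, grey points did not, and black lines are medians. All 18 E2F and S phase genes and all 7 maintenance partners lie left of 0. Methyl-CpG binding proteins and their relatives, TET partners and germline genes lie on either side.

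Proteins that act with TET enzymes or set the supply of their cofactor went both ways, with 3 of 9 higher and 4 lower. CXXC4, which binds TET2 and limits its level, had 18.2 ± 0.700 CPM with panobinostat and 6.69 ± 0.438 CPM in vehicle (SD, n = 3 each), a log2 change of 1.45 ± 0.08. Of the isocitrate dehydrogenases, which make the cofactor 2-oxoglutarate, the cytosolic IDH1 rose by 0.83 and the mitochondrial IDH2 fell by 1.15. D2HGDH, a dehydrogenase that clears the competing 2-hydroxyglutarate, fell by 0.98. QSER1, which acts with TET1 against methylation, fell by 0.71, and SMCHD1 by 0.17, which did not pass under upper quartile scaling (-0.05) or the 5 CPM filter (-0.07). OGT, the sugar transferase bound by TET proteins, and CXXC5 did not pass (0.02 and -0.04); OGT passed as higher with upper quartile scaling (0.14) and the 5 CPM filter (0.12), and CXXC5 changed sign in each (0.08 and 0.06).

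Base excision repair genes, which replace oxidised methylcytosine with cytosine, fell in 9 of 11 cases, with a median log2 change of -0.52. TDG, the glycosylase that removes the oxidised bases, had 28.3 ± 0.631 CPM with panobinostat and 43.5 ± 2.12 CPM in vehicle (SD, n = 3 each). LIG3 and APEX1, a ligase and an endonuclease of the pathway, fell by 1.35 and 0.70, and PARP1 by 0.60. NEIL1, a glycosylase at 0.420 ± 0.041 CPM with panobinostat and 1.72 ± 0.169 CPM in vehicle, fell by 2.03. NTHL1, XRCC1, POLB and NEIL2 fell by 0.27 to 0.52, and the call of NEIL2 was lost with upper quartile scaling (-0.15). SMUG1, another glycosylase, and GADD45A, a stress gene linked to demethylation, rose by 0.74 and 0.73.

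Of the 13 other NuRD subunits 9 fell and 3 rose, with a median log2 change of -0.59. CDK2AP1, a small subunit, had 39.5 ± 1.48 CPM with panobinostat and 275 ± 4.39 CPM in vehicle. The remodellers parted: CHD3 had 44.7 ± 1.89 CPM with panobinostat and 185 ± 3.06 CPM in vehicle, whereas CHD4 had 902 ± 15.3 and 761 ± 15.4 CPM (SD, n = 3 each). The deacetylases parted as well, with HDAC1 higher by 0.30 and HDAC2, named after its value was seen, lower by 0.32. CHD5 rose by 1.20 from a low level (1.20 CPM with panobinostat, 0.520 CPM in vehicle), and RBBP4, a histone chaperone, fell by 1.03. GATAD2B, also named after its value was seen, fell by 0.15, a change that did not pass under upper quartile scaling (-0.03) or the 5 CPM filter (-0.06). GATAD2A, named after its value was seen, was the subunit that did not pass (0.02); it passed as higher with upper quartile scaling (0.14) and the 5 CPM filter (0.12).

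Methyl donor genes fell in 10 of 15 tested cases and rose in 4. The fall of AHCY (-0.10), named after its value was seen, did not pass as lower in 9 of 14 alternatives, so that count was then 9. The folate enzymes SHMT1 and MTHFD2 fell by 1.96 and 1.38. MAT2A, which makes S-adenosylmethionine, the methyl donor of every DNA methyltransferase, had 382 ± 15.1 CPM with panobinostat and 231 ± 1.78 CPM in vehicle (SD, n = 3 each). MTAP, of methionine salvage, rose by 0.93. MTRR, named after its value was seen, was the gene that did not pass (0.01); it passed as higher with upper quartile scaling (0.13) and the 5 CPM filter (0.11).

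Germline genes that are kept silent by promoter methylation in most somatic cells did not share a direction where they could be tested. Of 21 listed, 13 had too few counts to be tested, and of the 8 tested 3 rose, 3 fell and 2 did not pass. With no filter on low counts 7 were called higher and 3 lower. MAGEB2 had 6.49 ± 0.4999 CPM with panobinostat and 0.276 ± 0.0744 CPM in vehicle, MAGEC1 2.70 ± 0.436 and 0.195 ± 0.0578 CPM, and PIWIL2 0.889 ± 0.331 and 0.104 ± 0.0666 CPM (SD, n = 3 each). Those rises start near the depth limit. Vehicle counts were 14, 8 and 9 for MAGEB2, 10, 5 and 7 for MAGEC1, and 6, 1 and 5 for PIWIL2. MAGEB2, MAGEC1 and PIWIL2 had enough counts only with panobinostat, so the filter nearly fixed their calls as higher. The split among the tested genes therefore depends on the filter. MAGEC2, MAGEA4 and MAGEA1 already had 163, 734 and 15.9 CPM in vehicle and fell by 0.94, 0.36 and 0.30. MAGEA genes share sequence with relatives, so their counts are uncertain. STK31 and RNF17, named after their values were seen, did not pass (0.01 and 0.10). DAZL, TDRD1 and TEX101 had 0 counts in every library, and SYCP1 had 4, 7 and 17 counts with panobinostat, against 0 in each vehicle library. TDRD9 had 6, 7 and 10 counts and MAEL 6, 4 and 4 counts with panobinostat, against 0 in each vehicle library. CTCFL had 4, 3 and 4 counts with panobinostat, against 0, 1 and 0 in vehicle.

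Among 11183 other genes at a mean of 5 CPM or more, the closest in profile to UHRF1, by the root mean square difference of centred log2 CPM over 6 libraries, were TAPBP (0.0201), SUV39H1 (0.0282), PFKFB3 (0.0311), ARPC1B (0.0311) and TROAP (0.0323). Their log2 changes were -1.55, -1.59, -1.52, -1.54 and -1.62. With 2 groups, this likeness mostly expresses a fall of the same size.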

How the data were processed

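The authors deposited whole-number counts of reads per gene symbol for 6 libraries, with no normalization. The table's name mentions STAR; no version, build, annotation or strandedness is stated there or in the labels. Groups came from the dose labels, and columns were matched by title. The 92 spike-in lines held 0 counts and were left out. Genes were kept with filterByExpr, scaled by TMM and tested with edgeR 4.0.16 in R 4.3.3 (glmQLFit with robust = TRUE, glmQLFTest, group alone, Benjamini-Hochberg over all tested genes). SE was derived from the F statistic. Log2 changes use edgeR's prior count of 0.125. The common biological coefficient of variation was 0.0449. Library pairs within a group differed by more than sampling noise (chi-square per degree of freedom 1.90 to 9.14). The steps were tested on simulated counts. Figures used matplotlib 3.10.9. Promoter sequences came from RefSeq, and windows matched all 9 genes. PCLAF and NSD2 were found by older symbols.

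Named were all 9 genes, every gene of lists of 12 or fewer, and up to 3 called genes per direction of longer lists by adjusted p, beside those said to be named after their values were seen; some listed genes are counted but not reported here by name. The genes and lists were chosen with earlier results of these data known. Alternatives were RLE and upper quartile scaling, library size alone, testing unfiltered genes, testing genes at 5 CPM or more in 3 libraries, DESeq2 1.42.0, limma-voom (limma 3.58.1), a replicate block, leaving out each library, and, chosen after seeing the data, coding length in place of exon length. Floors cover counting error only.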

Additional observations from a re-analysis of the deposited data

How the results depend on the processing

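All 8 genes that fell kept their direction and their call under all 14 alternatives, with log2 changes of -1.62 to -1.45 for UHRF1 and -0.93 to -0.76 for DNMT1. Under the 5 CPM filter, as under upper quartile scaling, 1 of the 9 genes (TET3) was called higher. So were 4 of the other methyl-CpG binding proteins and their relatives. With no filter on low counts 1 de novo partner and 7 germline genes were called higher, and with the 5 CPM filter 1 germline gene. Signs turned for CXXC5 (0.081) and AHCY (0.025) with upper quartile scaling, and for CXXC5 with the 5 CPM filter (0.055). With no filter they turned for TET3 (-0.034), OGT (-0.021), GATAD2A (-0.023), MTRR (-0.032) and STK31 (-0.033), and for STK31 also with limma-voom (-0.017). The cause was not tested. Leaving out 1 library gave log2 changes of -0.044 to 0.023 for TET3, -0.017 to 0.041 for OGT, -0.035 to 0.048 for GATAD2A, -0.025 to 0.025 for MTRR, -0.23 to 0.18 for STK31, -0.0032 to 0.21 for RNF17 and -0.066 to 0.099 for the MBD3/MBD2 ratio. The labels name no pairing of panobinostat and vehicle libraries beyond the replicate number. Deviations of same-numbered libraries from their group means correlated at -0.14, -0.11 and -0.27. Differently numbered libraries were not compared in this way, so these values cannot decide whether the numbers mark a pairing. With a replicate block 6259 genes were higher and 6150 lower, STK31 turned sign (-0.0080), and the barely passed fall of AHCY (-0.10, edgeR adjusted p = 0.0394) was lost (adjusted p = 0.0928). That call was lost in 9 of 14 alternatives, also with RLE scaling (0.0874), library size alone (0.073), DESeq2 (0.133), upper quartile scaling (0.576), the 5 CPM filter (0.986), and without panobinostat replicate 1 (0.177), panobinostat replicate 2 (0.149) or vehicle replicate 2 (0.0577), all adjusted p-values. Per kb of coding sequence, with panobinostat MBD3 ranked 1, DNMT1 3, TET3 4, DNMT3A 6 and TET1 8; in vehicle MBD3 ranked 2, UHRF1 4, DNMT3A 6, TET2 7 and TET1 8. Depth limits the germline genes most, since 13 of 21 could not be tested.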
